A study of Mus musculus with 60 samples.

Results

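Oxidative phosphorylation is carried out by 5 multi-subunit complexes of the inner mitochondrial membrane, and their subunits are encoded by both the mitochondrial and the nuclear genome. The members measured here are 95 genes with the symbols of the subunit families of complexes I to V. They were chosen by symbol alone from the 18088 genes of the deposited table. A symbol does not show that its product is a structural subunit. The members include Ndufb4c, a processed pseudogene, Atp5s, a factor B-like protein, and Cox7a2l, a relative of Cox7a2. The mitochondrial genome encodes 13 of them (7 of complex I, 1 of complex III, 3 of complex IV and 2 of complex V). The nuclear genome encodes the other 82 (36 of complex I, 4 of complex II, 8 of complex III, 17 of complex IV and 17 of complex V). All 95 passed the filter on low values (10 or more in at least 5 libraries). Other members of these families, such as Cox7b2, Cox8b and Cox8c, were not analysed here.

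Complex I (NADH dehydrogenase) and complex II (succinate dehydrogenase) feed electrons from the fuels of the cell to ubiquinone. Complex III passes them to cytochrome c and complex IV passes them to oxygen, while complex V, the ATP synthase, uses the resulting proton gradient to make ATP. Neurons draw most of their ATP from this chain. Every complex except complex II holds subunits from both genomes, so its assembly needs products of mitochondrial and of nuclear transcription.

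RNA-seq of mRNA was available for the prefrontal cortex of 60 C57BL/6J mice at postnatal day 25, with 5 libraries in each of 12 groups. The groups were HT (heterozygous Tbr1+/K228E) and WT mice, given fluoxetine, lithium or vehicle for 3 weeks, from day 3 to day 24, through the milk of the mother, in males and females. Fluoxetine is a serotonin reuptake inhibitor, lithium a mood stabiliser, and Tbr1 encodes a transcription factor that deep-layer neurons of the cortex express. No litter, dam or batch is named in the labels. The p-values therefore reflect the spread between these 60 libraries alone, and pups of 1 dam would share a treatment. Reads of Tbr1 do not tell a point-mutant allele from the normal one, so the genotype labels were not checked.

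Libraries held 23930164 to 36515331 reads (median 28721151). Values are reads divided by 1 size factor per library, called normalised reads, and are printed to 5 significant digits. The 5 cortical projection neuron markers were at a mean log2 value of 9.73 to 12.7 per library. The 10 libraries of vehicle males stood apart, HT and WT alike. Of all genes tested, 52.5% differed between vehicle males and vehicle females, against 0.09% between drug-treated males and drug-treated females (limma, adjusted p below 0.05). Within males, 36.9% to 58% of genes differed between each drug and vehicle. All vehicle males are among the libraries that stand apart, so for males the drug and what sets these libraries apart cannot be told apart.

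Of the mitochondrial members, 7 have a near-identical copy on chromosome 1 (chr1:24611535-24616197, GRCm38, minus strand), a stretch of mitochondrial DNA inserted into the nuclear genome and annotated as pseudogenes. Over the aligned bases mt-Atp6, mt-Co2, mt-Co3, mt-Nd4 and mt-Nd4l match their copies at every base. The copies of mt-Co1 and mt-Nd3 differ from them at 1 base, A1066T over 483 aligned bases of mt-Co1 and T3C over 345 aligned bases of mt-Nd3. Positions are counted from 1 at the 5′ end of the mitochondrial transcript, with its base first and that of the copy last. The stretches around these bases are shown because they are the only letters in the aligned parts by which a read could be assigned to one or the other, with the differing base in capitals.
mt-Co1 (chrM:6390-6423, plus strand): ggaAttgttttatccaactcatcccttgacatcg
Gm29216 (chr1:24616155-24616188, minus strand): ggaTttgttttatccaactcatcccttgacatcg
mt-Nd3 (chrM:9459-9491, plus strand): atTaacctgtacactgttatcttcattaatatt
Gm28438 (chr1:24613087-24613119, minus strand): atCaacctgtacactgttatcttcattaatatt

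The deposited table divided the reads of these 7 genes between the mitochondrial gene and the copy, unevenly from library to library. Of the sum of both, the copy held 83.1% on average for mt-Co3 (55.9% to 98.7% over the 60 libraries), 86.6% for mt-Atp6, 89.7% for mt-Nd3, 65.3% for mt-Co2, 64.4% for mt-Nd4l and 5.91% for mt-Co1. The copy of mt-Nd4 was above 0 in a single library, an HT vehicle male. In the 5 HT vehicle females mt-Co3, a core subunit of complex IV, was at 39097, 4377.5, 35247, 8745.4 and 4882.9 normalised reads, and in the 5 WT vehicle females at 25256, 1850.8, 35577, 28845 and 24536. With the copy added, mt-Co3 was at 164120 to 228630 in the HT and at 144200 to 179860 in the WT vehicle females. The SD of log2 values within groups was 1.02 for mt-Co3 alone and 0.18 with its copy, 0.88 and 0.27 for mt-Co2, 0.48 and 0.15 for mt-Atp6, and 0.45 and 0.22 for mt-Nd3. The mitochondrial members with no such copy had SDs of 0.12 to 0.16. Values of the 7 genes as deposited are therefore given beside those with the copy added, for levels and for the comparisons of males with females. Elsewhere they are as deposited.

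**Figure D1:**
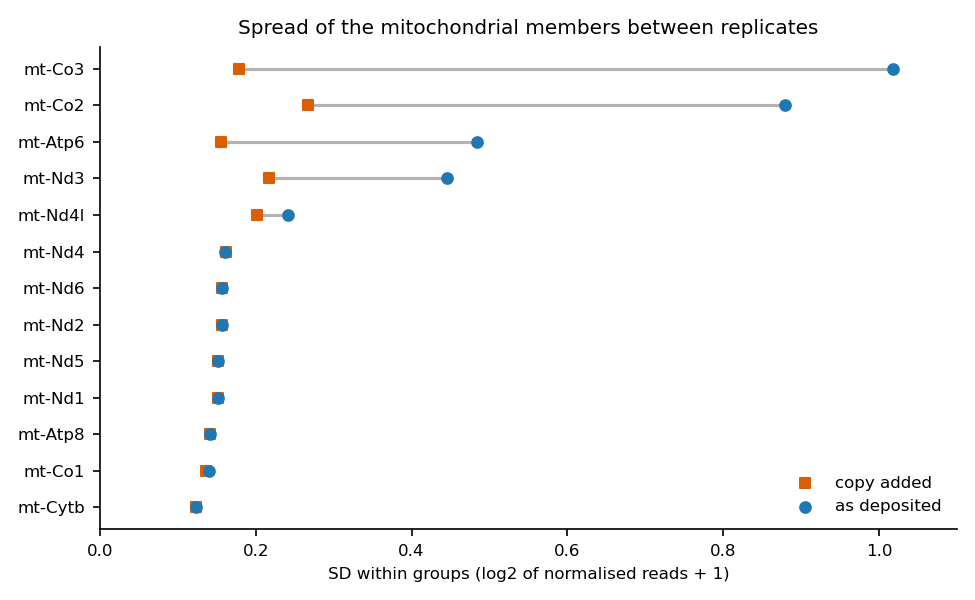
Within-group SD of log2(normalised reads + 1) for each of the 13 mitochondrial members over the 60 libraries, as deposited (circles) and with the chromosome 1 copy added (squares). The circle of mt-Co3 lies at 1.02 and its square at 0.18, and the squares of all 13 lie at or below 0.27.

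The 13 mitochondrial members took far more reads than the 82 nuclear ones. Over all 60 libraries they held 5.08% ± 0.90 of the normalised reads (SD, n = 60), or 6.81% ± 1.16 with the copies, against 0.864% ± 0.049 for the nuclear messages. Per kilobase of transcript, which adjusts for length, mt-Co1 (the catalytic subunit of complex IV) led with 394694 normalised reads per kilobase as deposited. It was followed as deposited by mt-Cytb (cytochrome b of complex III) at 172086 and mt-Nd1 (complex I) at 144080. With the copies added the order changed. Then mt-Co1 was at 418680 and was followed by mt-Co2 (266240), mt-Co3 (257080) and mt-Atp6 (252060), all above mt-Cytb. The annotated bases of mt-Atp6 (chrM:7927-8607) overlap those of mt-Atp8 (chrM:7766-7969), which was at 73207. Those of mt-Nd4l and mt-Nd4 overlap as well. These are therefore levels of annotated genes, which need not be those of separate messages. The lowest mitochondrial member on both counts was mt-Nd6 at 2140, a complex I subunit and the only one of the 13 encoded on the other strand.

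Among nuclear members the highest levels per kilobase were those of Cox8a (16117), Cox4i1 (14645) and Cox6a1 (11955) of complex IV and of Atp5b (14172), the catalytic beta subunit of the ATP synthase. Complex IV also held the lowest, the tissue-specific isoforms. Cox7a1, the heart and skeletal muscle isoform, was at 32.9 normalised reads per kilobase, against 3431 for Cox7a2 and 2624 for the related Cox7a2l. Cox7b, another small subunit of complex IV, was at 2763. Cox4i2, a hypoxia-related isoform known from lung, was at 38.4, Cox6b2, the testis isoform, at 47.1 against 6615 for Cox6b1, and Cox6a2, a heart and muscle isoform also found in some interneurons, at 164. Ndufa4l2, a hypoxia-induced relative of Ndufa4, was at 73.2, against 7321 for Ndufa4. The 3 genes for the same c subunit of the ATP synthase rotor stood at 5909 (Atp5g1), 5884 (Atp5g3) and 496 (Atp5g2). Ndufb4, a complex I subunit, and Ndufb4c, annotated as a processed pseudogene, are identical over 390 aligned bases. Reads from that stretch cannot be assigned between them, while the 971 bases of the Ndufb4 transcript extend beyond it.

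Vehicle males had more of the mitochondrial and less of the nuclear messages than vehicle females. The mitochondrial share of normalised reads was 6.76% ± 0.86 in HT and 6.58% ± 0.75 in WT vehicle males, against 4.74% ± 0.51 in HT and 4.37% ± 0.27 in WT vehicle females (SD, n = 5 each). In the 10 vehicle males it ran from 5.63% to 8.01% (median 6.53%), and in the 10 vehicle females from 3.95% to 5.55% (median 4.49%), so the groups did not overlap. In the 8 groups of drug-treated mice the means lay between 4.62% and 5.29%. Replicate 5 of the HT lithium females was at 6.95%, within the range of the vehicle males. Its share with the copies was 9.06%, and that of replicate 3 of the HT lithium males 8.05%. With the copies added the shares were 8.88% ± 1.0 and 8.81% ± 1.15 in HT and WT vehicle males, and 6.40% ± 0.67 and 5.82% ± 0.34 in HT and WT vehicle females. The nuclear share was 0.787% ± 0.042 in HT and 0.805% ± 0.031 in WT vehicle males, against 0.897% ± 0.062 in HT and 0.897% ± 0.068 in WT vehicle females, with group means of 0.841% to 0.890% in drug-treated mice.

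**Figure D2:**
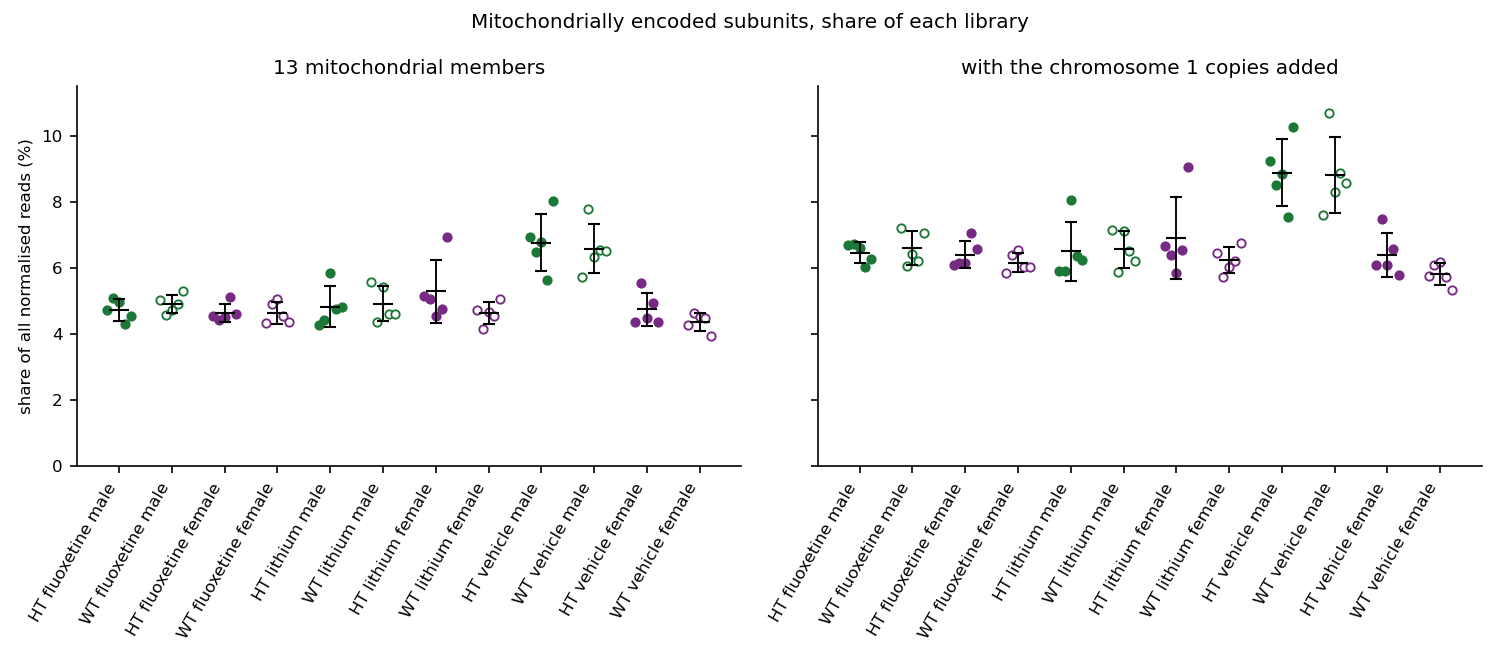
Share of all normalised reads (percent) held by the 13 mitochondrial members in each library, as deposited (left) and with the chromosome 1 copies added (right), by group. Green marks males, purple females, filled circles HT and open circles WT; bars are the group mean ± SD (n = 5). Both vehicle male groups lie highest, at means of 6.76% and 6.58% on the left and 8.88% and 8.81% on the right.

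As deposited, 12 of the 13 mitochondrial members were higher in vehicle males than in vehicle females (limma, adjusted p below 0.05; median of the 13 log2 differences 0.71), and mt-Co2 was not called (-0.14, limma adjusted p = 0.785). Over all genes tested, 26.1% were called higher and 26.4% lower, with a median log2 difference of 0.0018. The complex I gene mt-Nd1 ran from 168350 to 242500 normalised reads in vehicle males (median 181450) and from 102730 to 137680 in vehicle females (median 112230). These ranges did not overlap, and the log2 difference was 0.71 (SE 0.07, limma adjusted p = 3.18e-12). The ATP synthase gene mt-Atp8 ran from 19835 to 25701 in vehicle males and from 10260 to 13667 in vehicle females, a log2 difference of 0.90 (SE 0.06, limma adjusted p = 2.53e-17). The other complex I genes with no copy or almost none, mt-Nd2 (0.70), mt-Nd4 (0.61), mt-Nd5 (0.61) and mt-Nd6 (0.75), and mt-Cytb (0.52) of complex III rose by similar amounts.

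The genes that share reads with a copy gave different sizes with it. The log2 difference of mt-Atp6, the proton channel subunit of the ATP synthase, was 1.99 as deposited and 0.86 with the copy added. That of mt-Co3 was 1.31 and 0.38, that of mt-Co1 0.52 and 0.45, and that of mt-Nd3 0.91 and 0.95. With the copy added, mt-Co2 was called higher as well (0.65, SE 0.12, limma adjusted p = 6.67e-06). The direction turned for mt-Nd4l, a small complex I subunit, which was at 0.999 as deposited and at -0.17 with its copy (limma adjusted p = 0.102). Its copy was at 0 to 22322 normalised reads in vehicle males (median 668) and at 13319 to 19341 in vehicle females. The annotated bases of mt-Nd4l (chrM:9877-10173) overlap those of mt-Nd4 (chrM:10167-11544), which was higher in vehicle males. The opposite sign of mt-Nd4l with its copy need not be the direction of a separate message.

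Of the 82 nuclear members, 14 were higher and 50 lower in vehicle males than in vehicle females (limma, adjusted p below 0.05; median log2 difference -0.17), beside the 26.1% and 26.4% of all genes tested. In all, 76 of the 95 members were called. Complex I had 7 higher and 20 lower of 36, complex II 4 lower of 4, complex III 2 higher and 5 lower of 8, complex IV 1 higher and 10 lower of 17, and complex V 4 higher and 11 lower of 17. Within complex I, the 7 nuclear subunits of the catalytic core split into 2 higher and 5 lower. The 29 accessory members, which include the pseudogene Ndufb4c, split into 5 higher and 15 lower. The plot of fold changes by complex shows lower members in every complex and higher ones in each but complex II.

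**Figure D3:**
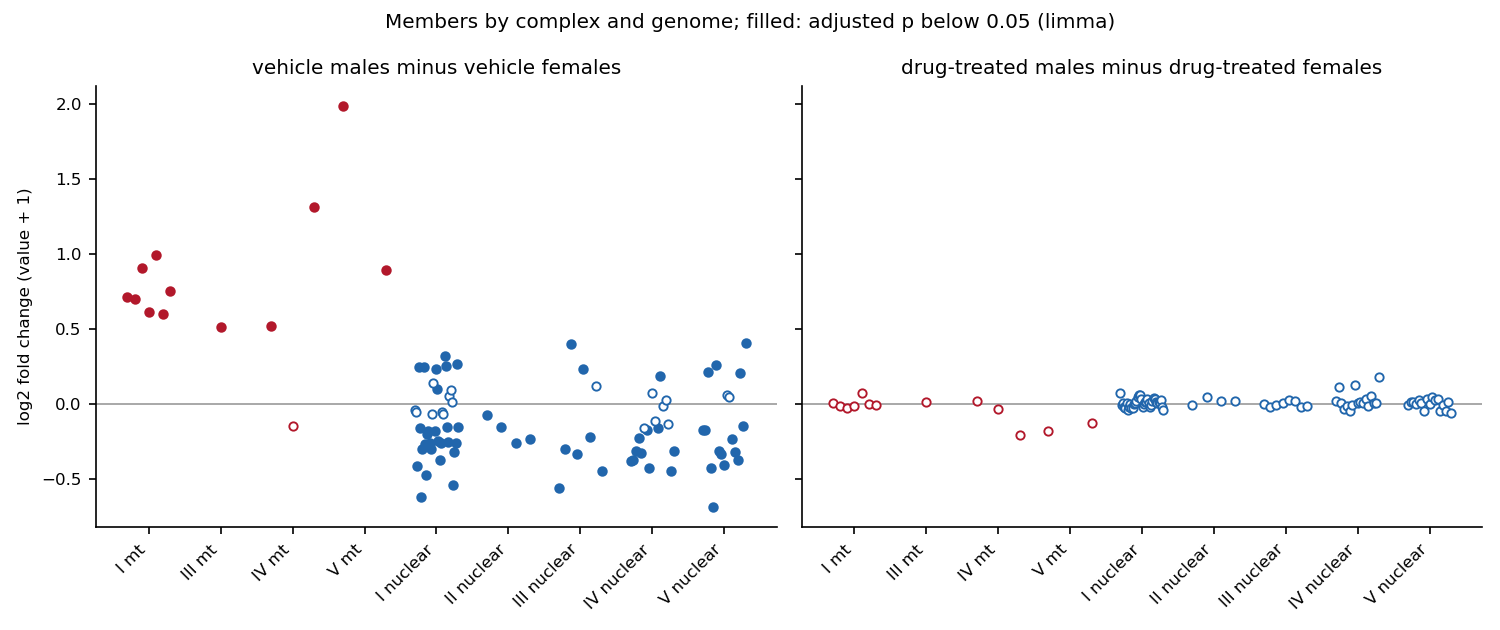
Log2 fold changes of the 95 members (limma, log2(value + 1)) by complex and genome, for vehicle males minus vehicle females (left) and drug-treated males minus drug-treated females (right); red marks mitochondrial and blue nuclear members, and filled circles an adjusted p below 0.05. On the left 12 mitochondrial members lie above 0 and 50 nuclear members are called below it, while on the right 0 members are called.

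Ndufs7, a core subunit that holds the last iron-sulfur cluster before ubiquinone, had the smallest p of the nuclear members. It ran from 931.7 to 1143.0 normalised reads in the 10 vehicle males (median 1025.8) and from 1391.0 to 1545.7 in the 10 vehicle females (median 1498.0), with no overlap. The log2 difference was -0.54 (SE 0.03, limma adjusted p = 1.0e-19). In the 40 drug-treated libraries it ran from 1394.9 to 1667.5 in males and from 1375.8 to 1604.3 in females, so each of those libraries lay above each vehicle male.

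The members that fell furthest were Atp5e (epsilon subunit of the ATP synthase, -0.69), Ndufa2 (an accessory subunit of complex I, -0.61), Uqcr10 (a small subunit of complex III, -0.56), Ndufs7 and Ndufa7 (accessory, complex I, -0.47). Uqcr10 was at 1170.0 to 1425.1 normalised reads in vehicle males and at 1503.9 to 2035.7 in vehicle females, with no overlap, and Atp5e at 630.11 to 923.85 and 1057.1 to 1589.0. Those that rose furthest were Atp5s, a factor B-like protein of the ATP synthase (0.41), Uqcrb, the ubiquinone-binding protein of complex III (0.40), Ndufc2 (accessory, complex I, 0.33), Ndufv2 (core, complex I, 0.27) and Atp5f1, the b subunit of the peripheral stalk (0.26). Uqcrb was at 1539.4 to 1977.9 in vehicle males and at 1115.2 to 1478.9 in vehicle females, again with no overlap. Atp5s was at 288.04 to 365.84 in vehicle males and at 198.89 to 286.11 in vehicle females.

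**Figure D4:**
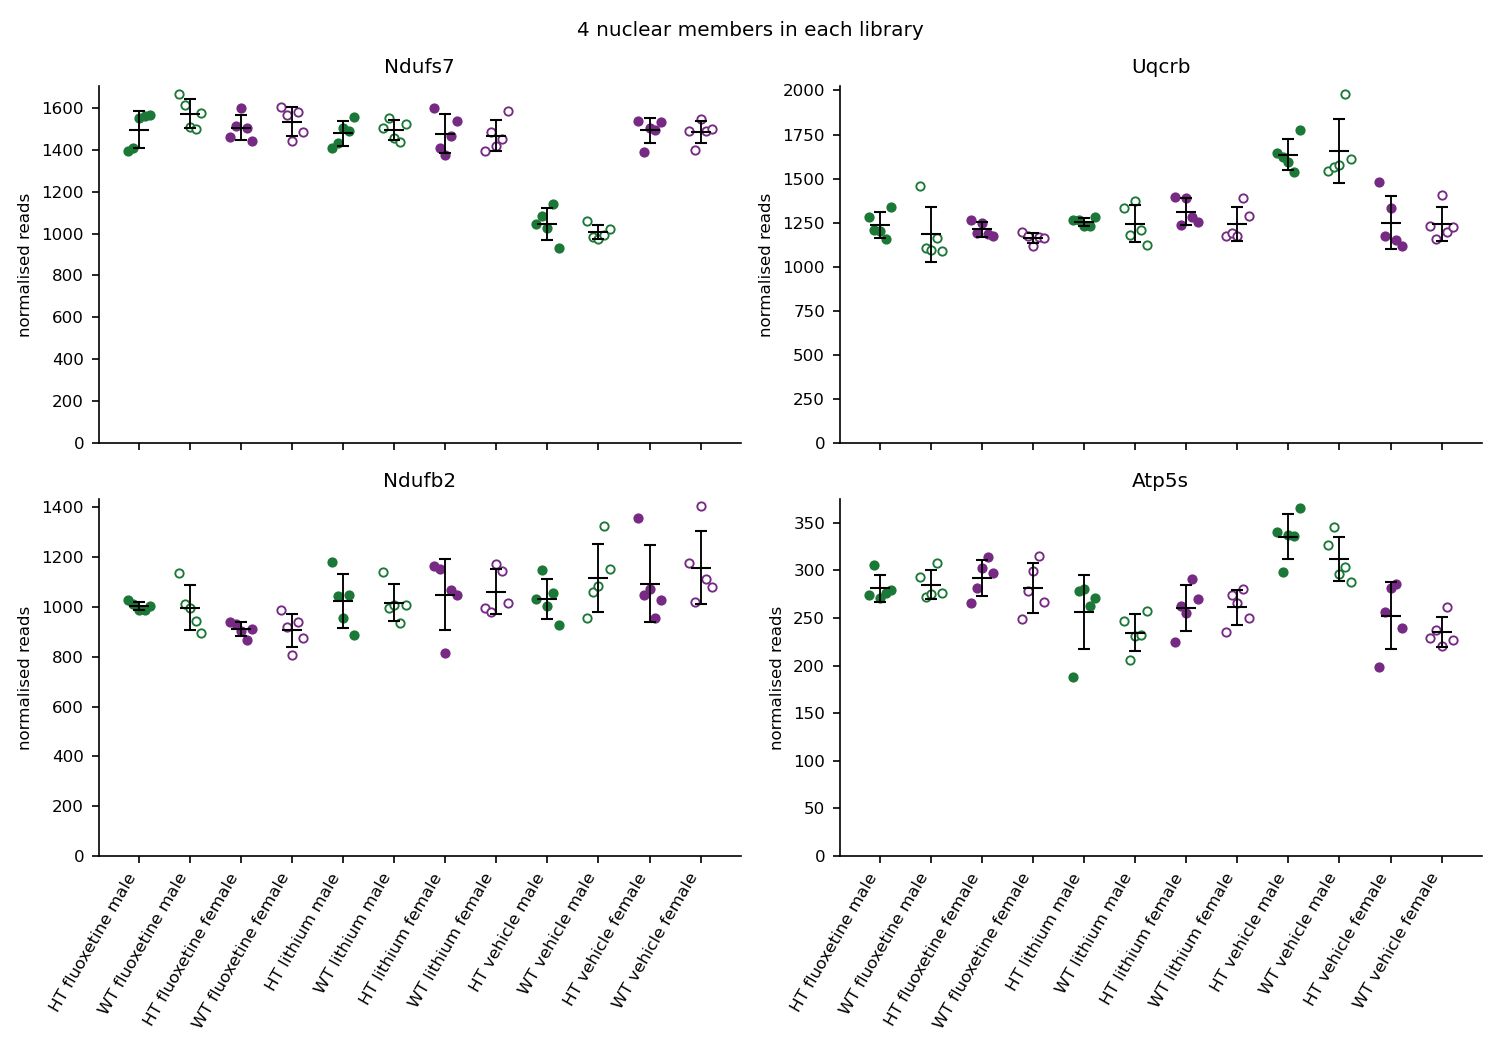
Normalised reads of Ndufs7, Uqcrb, Ndufb2 and Atp5s in each library by group; green marks males, purple females, filled circles HT and open circles WT, with the group mean ± SD (n = 5). Ndufs7 lies at 931.7 to 1143.0 in vehicle males and at 1375.8 or above elsewhere, Uqcrb at 1539.4 to 1977.9 in vehicle males, and Ndufb2 is at 807.78 to 985.78 in WT fluoxetine females.

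The direction of a member went with the base composition of its message. The mitochondrial transcripts hold 31.9% to 41.1% GC and the nuclear ones 39.0% to 61.1% (median 52.0%). Among nuclear members, the 14 higher in vehicle males had a median GC content of 47.9% and a median length of 1094.5 bases, the 50 lower ones 54.1% and 738.5 bases, and the 18 not called 51.3% and 596.5 bases. With the trend of each library on GC and length subtracted, 48 of the 95 members were called (14 higher, 34 lower), beside 21% of all genes in the same fit (9.75% higher, 11.3% lower). Of the mitochondrial members 3 were then called higher (mt-Nd1 0.20, mt-Nd4l 0.51 and mt-Atp6 1.38, as deposited) and 10 were not, among them mt-Atp8 at -0.06 and mt-Cytb at 0.07. Both mt-Nd4l and mt-Atp6 share reads with a copy, which was not added in this fit. Ndufs7 (-0.25), Uqcr10 (-0.42), Ndufa2 (-0.60) and Atp5e (-0.58) were still lower, while Uqcrb stood at 0.04 and Atp5s at -0.04 (limma adjusted p = 0.688 and 0.732). The mitochondrial members lie at the low end of the range of GC content, where the trend rests on fewer genes. The 5th percentile of all genes is at 39.6% GC, and all mitochondrial members but mt-Co1 and mt-Nd4l lie below it. The highest of them, mt-Nd4l, has 8.47% of all genes measured below its GC content.

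**Figure D5:**
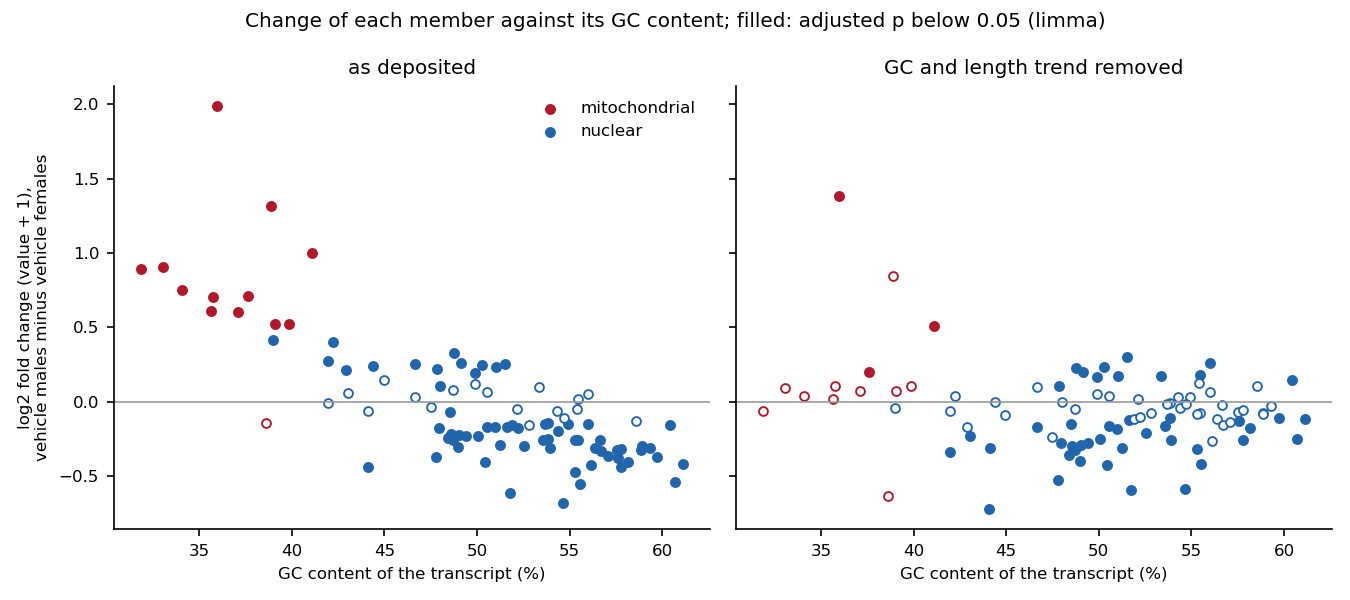
Log2 fold change of each member in vehicle males minus vehicle females against the GC content of its transcript (percent), as deposited (left) and with each library's trend on GC content and length removed (right). Red marks the 13 mitochondrial and blue the 82 nuclear members, and filled circles a limma adjusted p below 0.05; on the left the mitochondrial members lie at 31.9% to 41.1% GC, 12 of them above 0, and on the right 3 are filled.

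Promoter windows of 250 bases before to 50 bases after the transcription start were found in the RefSeq table (GRCm38.p6) for 64 of the 82 nuclear members, as 69 windows. They were searched on both strands for motifs of factors known for genes of this group. The NRF1 motif GCGCANGCG occurred in 30.4% of the 69 windows and in 11.2% of the 16130 windows of genes tested. The ETS motif CCGGAAG, bound by GABPA, occurred in 23.2% and 14.6%, the YY1 motif AAGATGGCG in 10.1% and 2.43%, and the TATA box letters TATAAA in 8.7% and 7.81%. None of the motifs is contained in another. Of the members lower in vehicle males, 15 of 44 windows held the NRF1 motif, as did 3 of 9 of the higher ones and 3 of 16 of those not called. The ETS motif was in 12 of 44, 0 of 9 and 4 of 16 of the same windows. These are matches of letters in a window and show no binding. The window of Ndufs7 is shown as that of the nuclear member with the smallest p in vehicle males, with its match to AAGATGGCG at position 275 of the window and that to TATAAA at position 152 in capitals.
Ndufs7 (chr10:80249199-80249498, plus strand): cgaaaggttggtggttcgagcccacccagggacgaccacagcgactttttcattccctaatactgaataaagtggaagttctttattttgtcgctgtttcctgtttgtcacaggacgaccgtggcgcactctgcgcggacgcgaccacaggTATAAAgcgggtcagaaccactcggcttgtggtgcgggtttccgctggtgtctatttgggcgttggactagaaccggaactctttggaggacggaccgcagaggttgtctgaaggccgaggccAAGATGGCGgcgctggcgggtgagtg

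Other genes of the mitochondria also differed between vehicle males and vehicle females. Of 16 genes of the tricarboxylic acid cycle 6 were higher and 8 lower, among them Dld (a shared subunit of the 2-oxo acid dehydrogenases, 0.44) and Mdh2 (malate dehydrogenase, -0.27). Of 30 genes for the expression of mitochondrial DNA 16 were higher and 7 lower. The transcription factors of the mitochondrial genome Tfam (0.24) and Tfb2m (0.44) were higher, and the mitochondrial RNA polymerase Polrmt (-0.41) and the polymerase subunit Polg (-0.21) lower. Of 45 assembly factors 16 were higher and 13 lower, and of 78 mitochondrial ribosomal proteins 30 were higher and 23 lower. All of these are counts beside 26.1% higher and 26.4% lower over all genes tested. Of the 17 gene identifiers of the glycolysis list 14 were lower and 0 higher (median -0.24). A symbol with several identifiers counts for each. The phosphofructokinase Pfkl was at -0.43 and the pyruvate kinase Pkm at -0.32. Of the 12 regulators of nuclear subunits 7 were higher and 5 lower, with Gabpa (0.42) and Ppargc1a, the coactivator PGC-1α (0.30), higher, and the receptor Esrra (-0.38) and Nrf1 (-0.17) lower.

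Red cell markers moved with this comparison, 4 of 5 lower in vehicle males. Their sum was 4270.7 to 7284.6 normalised reads in vehicle males and 5593.5 to 12177 in vehicle females, and none was at 0 in any library. Microglial markers split (1 higher and 3 lower of 4), 2 of 6 markers of the meninges were lower, and 0 of 7 markers of the olfactory bulb were called. All of these counts stand beside 26.1% higher and 26.4% lower over all genes tested. Their part in the result was not tested. In bulk tissue, fewer cells of a type and less RNA per cell cannot be told apart.

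Between drug-treated males and drug-treated females 0 of the 95 members were called (limma; 0.09% of all genes tested, 0.0337% higher and 0.0562% lower, 2 members at an unadjusted p below 0.05, or 2.11%, against 4.81% of all genes, and 0 by edgeR and by DESeq2). The median log2 difference was 0.0077, and the 95 differences ran from -0.21 (mt-Co3) to 0.18 (Ndufa4l2). With its copy added mt-Co3 was at 0.04, and the 95 differences ran from -0.13 (mt-Atp8) to 0.18. The smallest p was that of mt-Atp8 (-0.13, SE 0.04, limma adjusted p = 0.963).

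Each drug was compared with vehicle in males of each genotype, where the vehicle libraries are those that stand apart. The 4 comparisons share the vehicle males of their genotype. Under fluoxetine 51 members were higher and 17 lower in WT males (limma; 58% of all genes tested were called, 28.7% higher and 29.3% lower) and 43 and 20 in HT males (41.4%, 20.4% higher and 20.9% lower). Under lithium 49 were higher and 23 lower in WT males (48.2%, 24.5% higher and 23.7% lower) and 42 and 24 in HT males (36.9%, 18.5% higher and 18.4% lower). Of the 13 mitochondrial members, as deposited, 0 were higher and 10 or 11 lower in each. Ndufa2, Uqcr10, Uqcrb and Ndufc2 were the nuclear members that came among the 5 furthest rising or the 5 furthest falling in each comparison. Fewer members fell than rose, so a falling member could rank there with a smaller change. Ndufa2 was higher by 0.75 and 0.71 under fluoxetine (WT and HT) and by 0.61 and 0.67 under lithium, and Uqcr10 by 0.70, 0.59, 0.62 and 0.53 in the same order. Uqcrb was at -0.49, -0.40, -0.41 and -0.38, and Ndufc2 at -0.31, -0.27, -0.43 and -0.33.

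The change under each drug differed between the sexes. For fluoxetine the difference (males minus females, averaged over genotypes) was called for 65 of the 95 members, 44 above and 21 below 0 (limma; 39.5% of all genes tested, 19.8% on each side), with Atp5e at 0.82 (SE 0.08, limma adjusted p = 2.25e-11), Ndufs7 at 0.55 and Atp5s at -0.43. For lithium it was called for 63, 38 above and 25 below 0 (40.8% of all genes tested, 20.2% above and 20.6% below), with Atp5e at 0.61 and Ndufs7 at 0.55. These differences take in that between vehicle males and vehicle females.

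In WT females on fluoxetine 13 of 95 were called, 9 higher and 4 lower than under vehicle (limma; 13.7% of the members, against 39.8% of all genes tested, 20.9% higher and 19% lower). The median log2 difference of the 95 was 0.06, and 0.0065 over all genes tested. By complex, the called nuclear members were 1 higher and 2 lower in complex I, 1 and 1 in complex II, 0 and 0 in complex III, 3 and 1 in complex IV and 2 and 0 in complex V. The mitochondrial ones were mt-Atp8 (0.31, SE 0.09, limma adjusted p = 0.0061) and mt-Nd5 (0.25, SE 0.10, limma adjusted p = 0.040).

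Ndufb2, an accessory subunit of complex I, had the smallest p. It was at 985.78, 921.05, 807.78, 937.61 and 875.06 normalised reads in WT females on fluoxetine and at 1174.2, 1020.6, 1402.9, 1112.8 and 1078.6 in WT females on vehicle. All 5 fluoxetine libraries lay below all 5 vehicle libraries, and the log2 difference was -0.35 (SE 0.09, limma adjusted p = 0.0026). Its promoter window held none of the motifs searched. Ndufs4, an accessory subunit of complex I mutated in Leigh syndrome, fell by 0.20 (limma adjusted p = 0.0496), and Sdhc, a membrane anchor of complex II, by 0.13 (limma adjusted p = 0.039).

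Members that rose included the complex IV isoforms Cox6a2 (0.55, SE 0.21, limma adjusted p = 0.031) and Cox6a1 (0.21, SE 0.08, limma adjusted p = 0.032). Cox6a2 was at 116.99, 104.44, 127.92, 142.48 and 120.16 in WT females on fluoxetine and at 70.025, 63.491, 64.579, 133.07 and 102.52 on vehicle, and the groups overlapped through 1 vehicle library, at 133.07. Atp5s rose by 0.26 (limma adjusted p = 0.016), Atp5g1, a c subunit gene, by 0.18 (limma adjusted p = 0.017) and Ndufa8, a complex I accessory subunit, by 0.14 (limma adjusted p = 0.044). The remaining 3 called members were Cox4i1 (0.13), Cox6b2 (-0.74, at a mean of 21.9 normalised reads) and Sdha, the catalytic subunit of complex II (0.10). Cox4i1 and Cox6b2 belong to the isoform sets. Sdha lies outside the naming rule and was named after its value was seen.

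Olfactory bulb markers moved with fluoxetine in WT females (the bulb lies just in front of the prefrontal cortex). All 7 were lower (median -5.15), and their sum was 243.57 to 2058.3 normalised reads in WT females on fluoxetine and 6287.4 to 22899 in WT females on vehicle, with none at 0 in any library. All 6 markers of the meninges were lower as well (sums of 4590.9 to 5730.1 on fluoxetine and 6242.4 to 11149 on vehicle). Of the 5 markers of cortical projection neurons 2 were higher, with sums of 65077 to 70035 on fluoxetine and 34983 to 61166 on vehicle. Over all genes tested 20.9% were higher and 19% lower. With the mean of the bulb list as a covariate, 0 of the 95 members and 0.00562% of all genes were called, with Ndufb2 at -0.14 and Cox6a2 at -0.06. The bulb sums of these groups did not overlap, so the drug and the bulb content cannot be told apart here. The loss of calls with this covariate does not decide between them. The count of 13 was 21 without replicate 4 and 6 without replicate 1 or 3 of the WT vehicle females, 8 without their replicate 2, and 6 without replicate 4 and 8 without replicate 1 of the WT fluoxetine females. By quantile normalization 3 members were called higher and 12 lower, beside 20.7% and 18.3% of all genes. By edgeR 7 and 6 were called, beside 19.3% and 21.4% of all genes. The balance of higher and lower members therefore depends on the scaling.

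Of the 17 gene identifiers of the glycolysis list 12 were higher and 2 lower in WT females on fluoxetine (median 0.19), among them the hexokinase Hk1 (0.42) and Pfkl (0.39). Of the 16 genes of the tricarboxylic acid cycle 5 were higher and 2 lower, a share near the 39.8% of all genes called. Of the 12 regulators 5 were lower and 0 higher, again beside 20.9% higher and 19% lower over all genes tested, with Gabpa at -0.36, Nrf1 at -0.31 and Ppargc1a at -0.25. Whether these lists differ from the subunits was not tested, and the bulb and meningeal markers above moved with them too.

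In HT females on fluoxetine 0 of the 95 members were called by limma (0% of all genes tested, 8 members at an unadjusted p below 0.05, or 8.42%, against 22.9% of all genes), 0 by edgeR and 1 by DESeq2, mt-Atp8. DESeq2 called 2.18% of all genes here. The members with the smallest p were mt-Atp8 (0.32, SE 0.09, limma adjusted p = 0.138), Ndufb2 (-0.25, SE 0.09, limma adjusted p = 0.159) and Atp5s (0.22, SE 0.09, limma adjusted p = 0.171). Ndufb2 was at 865.9 to 938.71 normalised reads in HT females on fluoxetine and at 957.33 to 1358.4 in HT females on vehicle. The interaction of fluoxetine with genotype, over both sexes, called 0 members (limma; 0% of all genes tested, 9 members at an unadjusted p below 0.05, or 9.47%, against 14.8% of all genes, and 0 by edgeR and DESeq2). Without replicate 4 of the HT vehicle females 2 members were called in HT females.

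Lithium called 0 members in WT females (limma; 0.00562% of all genes tested, 6 members at an unadjusted p below 0.05, or 6.32%, against 11.3% of all genes) and 0 in HT females (0.0169%; 8 members, or 8.42%, against 9.5%), and edgeR and DESeq2 also called 0 in each. The smallest p in both was that of mt-Atp8, at 0.31 (SE 0.09, limma adjusted p = 0.201) in WT and 0.27 (SE 0.09, limma adjusted p = 0.519) in HT females. Ndufa4l2 was at -0.44 in WT and -0.38 in HT females, and Atp5g1 at 0.14 and 0.18, none of them called. The interaction of lithium with genotype called 0 members (limma; 0% of all genes tested, 1 member at an unadjusted p below 0.05, or 1.05%, against 4% of all genes, and 0 by edgeR and DESeq2).

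The genotype comparisons ask what the K228E allele does to these messages. Under vehicle, 0 of 95 members passed between HT and WT mice (limma; 0.0337% of all genes tested, 0.00562% higher and 0.0281% lower, 21 members at an unadjusted p below 0.05, or 22.1%, against 33.2% of all genes), 0 by edgeR and 6 by DESeq2, all 6 higher in HT mice. DESeq2 called 8.9% of all genes in this comparison, 5.43% higher and 3.48% lower. The 77 members above 0 and 18 below it had a median log2 difference of 0.06, against 0.000081 for all genes tested. Cox6a2 was at 53.827 to 137.07 normalised reads in the 10 HT vehicle mice and at 50.074 to 133.07 in the 10 WT vehicle mice, a log2 difference of 0.46 (SE 0.15, limma adjusted p = 0.078). Ndufb9, an accessory subunit of complex I, was at 2781.7 to 3332.9 in HT and 2196.8 to 3080.9 in WT vehicle mice (0.17, SE 0.06, limma adjusted p = 0.079). Ndufa8 (0.12), Cox4i1 (0.11) and Ndufb8 (0.12) were likewise not called. The 7 bulb markers were at a median of -1.47 in this comparison, with sums of 364.44 to 23854 in HT and 5455.5 to 23729 in WT vehicle mice. Leaving out 1 library moved the count of 0 in 4 cases: to 15 (HT vehicle female replicate 1), 8 (HT vehicle male replicate 2), 7 (WT vehicle male replicate 1) and 6 (WT vehicle female replicate 4).

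Under fluoxetine 0 members were called between HT and WT mice (limma; 0.0112% of all genes tested, 6 members at an unadjusted p below 0.05, or 6.32%, against 2.95% of all genes), and under lithium 0 (0.00562%; 13 members, or 13.7%, against 8.37%), with 0 by edgeR and by DESeq2 in both. Under lithium Ndufc1 was at 0.28 (SE 0.08, limma adjusted p = 0.414) and Atp5e at 0.18 (SE 0.06, limma adjusted p = 0.437), and under fluoxetine mt-Atp8 was at 0.16 (limma adjusted p = 1.0).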

How the data were processed

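Per the labels' protocols, the kit used for the mRNA libraries keeps strand. The submitters' processing notes name Salmon 0.11.2, R 3.6.0, DESeq2 1.19.11 and GRCm38 without saying which step each served. Each deposited signal is the number of reads of a gene over the size factor of its library, from 0.818 to 1.33. At a tolerance of 1e-06, 100% of values came out as whole reads. Symbols, transcripts and coordinates are those of GENCODE (GRCm38), and 18077 of 18088 identifiers had a symbol. Length and GC content are those of 1 principal transcript per gene.

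The test was limma 3.58.1 (R 4.3.3, trended variance) on log2(value + 1), fitting 12 group means to all 60 libraries. A gene was kept if 5 libraries or more reached 10 (17781 genes). P-values are two-sided and adjusted by Benjamini-Hochberg over all genes of a contrast, with a threshold of 0.05. Fold changes on this scale understate changes of low genes. The named genes are all mitochondrial members where members were called, the called nuclear members of mean 50 or more that changed most (up to 5 rising and 5 falling), the 5 smallest p-values where fewer than 5 were called, and the isoform sets. The members, lists, motifs and naming rule were chosen with earlier results of these data known. The count test set for the case of raw counts was run as an alternative only.

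Alternatives were a pseudocount of 5, no filter, quantile normalization, a replicate block, counts of whole reads tested with DESeq2 1.42.0 or edgeR 4.0.16, an olfactory bulb covariate, removal of a GC and length trend, and leaving out each library. Copies are annotated transcripts at least 98% identical over at least 200 bases, and adding their values was chosen after seeing the data. The test was checked on simulated data. No pair of libraries within a group (120 pairs) agreed within sampling noise, the lowest chi-square over its degrees of freedom being 3.11.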

Additional observations from a re-analysis of the deposited data

Results flagged for a closer look

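Shares of reads per library were checked for single libraries far from the other 4 of their group, in 48 sets of 5 (4 measures in 12 groups). Of these 8 stood out by Dixon's criterion, where chance gives about 1 in 20 for a single set. The measures overlap and some libraries stood out on more than 1 of them. The sets are therefore not independent, and the count cannot be held against that rate. Replicate 5 of the HT lithium females had a mitochondrial share of 6.95%, or 9.06% with the copies, and a log2 ratio of mitochondrial (with copies) to nuclear sums of 3.36. Replicate 3 of the HT lithium males had a share with copies of 8.05% and a log2 ratio of 3.21. Replicate 4 of the HT fluoxetine females had a mitochondrial share of 5.12%. The nuclear share was 0.971% in replicate 1 of the WT fluoxetine males and 0.858% in replicate 4 of the WT vehicle males. Each of these was the highest of its group.

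The change under drug differed between males and females by a test of the difference itself. It called 65 of the 95 members for fluoxetine and 63 for lithium (limma, adjusted p below 0.05), beside 39.5% and 40.8% of all genes. The vehicle males stand apart from all other libraries, so this difference and what sets them apart cannot be told apart.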

How the results depend on the processing

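Under the alternatives, the directions in vehicle males and in drug-treated males held for most named members. With the GC and length trend removed, fewer members were called in these comparisons. In vehicle males against vehicle females 48 were called (14 higher, 34 lower), beside 21% of all genes in that fit. In HT males 38 were called for fluoxetine (32, 6), beside 15.8% of all genes, and 35 for lithium (26, 9), beside 11.2%. In WT males lithium called 44 (37, 7), beside 23.5%. The interactions of fluoxetine and lithium with sex called 35 (31, 4) and 28 (22, 6), beside 10.3% and 10.6%. In that fit Atp5s (-0.0399), Ndufv2 (-0.0598) and mt-Atp8 (-0.0627) turned in vehicle males. DESeq2 called 6 members in HT against WT under vehicle and 1 for fluoxetine in HT females. With the bulb covariate 0 were called for fluoxetine in WT females. There Cox6a2 (-0.0565), Cox6a1 (-0.0621), Atp5g1 (-0.0065), Ndufa8 (-0.013) and mt-Nd5 (-0.0321) turned. In that comparison the covariate and the drug cannot be told apart. The gene mt-Nd5 also turned with quantile normalization (-0.0891). With copies added mt-Nd4l turned in vehicle males (-0.17), and the difference in mitochondrial share between vehicle males and vehicle females became 2.74 percentage points. Apart from the copies, which hold reads outside the main sums, the cause was not tested.

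Leaving out each library gave 0 to 15 calls for HT against WT under vehicle, 6 to 21 for fluoxetine in WT females and 0 to 2 in HT females. It gave 64 to 70 and 58 to 66 for fluoxetine in WT and HT males, 64 to 70 and 57 to 66 for lithium in WT and HT males, 71 to 76 for vehicle males against vehicle females, 62 to 67 and 60 to 66 for the interactions of fluoxetine and lithium with sex, and 1.96 to 2.26 percentage points for the share. Replicate numbers are not shown to pair the samples: same-numbered libraries had a median correlation of 0.0052 (-0.565 to 0.616), and 15 of 60 libraries correlated best with their own number. With the number as a block 75 members were called in vehicle males against vehicle females and 12 for fluoxetine in WT females.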
